A study of Mus musculus with 2 samples.

Results

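The genes described here make fatty acids and sterols. They were chosen by name, with earlier results of these data known, as 31 of the 31053 genes in both count matrices. The sterol branch holds 19 of them and the fatty acid branch 12. The rule uses no measured value of these genes, but it splits the cells by measured counts of others. All 31 were found in both matrices. The cells were mammary luminal cells, the inner epithelial layer of the gland, taken from FVB/NJ mice aged 3.5 months, isolated by fluorescence sorting and read with droplet-based 3′ single-cell RNA sequencing. The WT group carried the Sox9-GFP reporter, in which green fluorescent protein marks Sox9 expression. The C3-TAg group carried Sox9-GFP;C3-TAg, that is, the reporter together with a transgene for the simian virus T antigens, which bind and inactivate p53 and the Rb family. So both groups carry the reporter, and neither is unmodified. Each group was 1 library, and the sources used here do not give the number of mice behind it or the promoter that drives either transgene. No difference below therefore has a replicate check, no p-value was computed, and the 95% intervals cover counting error only.

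Cholesterol is built from acetyl-CoA by the mevalonate pathway. Hmgcs1, Mvk, Pmvk, Mvd and Idi1 make the isoprene units, Fdps and Fdft1 join them into squalene, Sqle and Lss close the rings, and Cyp51, Msmo1, Nsdhl, Hsd17b7, Ebp, Sc5d and Dhcr7 trim and reduce the ring system. The transcription factor SREBP2, encoded by Srebf2, drives these genes when membrane sterol is low. Insig1 holds SREBP in the endoplasmic reticulum when sterol is plentiful, and Stard4 carries cholesterol between membranes. Fatty acids are built from the same acetyl-CoA. Acly and Acss2 supply it, Me1 supplies NADPH, Acaca and Fasn build palmitate, Elovl1, Elovl5 and Elovl6 lengthen chains, and Scd1 and Scd2 insert the double bond that makes oleate. SREBP1, encoded by Srebf1, and the small nuclear protein encoded by Thrsp (Spot 14) promote this branch. Secretory mammary cells use it to make milk fat.

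The promoters of both branches are shown first because SREBP acts on them together with the general factors NF-Y and Sp1. RefSeq promoter entries on GRCm38.p6 matched 25 of the 31 genes, 15 of the sterol branch and 10 of the fatty acid branch, and Fdps, Fdft1, Sqle, Stard4, Scd1 and Scd2 had no entry. Of the 25 genes, 5 have several RefSeq starts, and a gene was counted where any of its promoters held the letters, in the members and in the 27025 genes of the background alike. In the 250 bases before the RefSeq start, the NF-Y letters CCAAT, searched on both strands, were present in 15 of the 15 sterol genes and in 7 of the 10 fatty acid genes, against 37.5% of all genes. The Sp1 letters GGGCGG were present in 14 and in 5 of these genes, against 35.4% of all genes. Counted by single promoter, CCAAT was in 15 of 18 sterol and 8 of 14 fatty acid promoters and GGGCGG in 15 and 7 of them, against 33.9% and 32.7% of 32851 promoters. The sterol element CACNCCAC was found for Hmgcs1 and Insig1 in the sterol branch and for no gene of the fatty acid branch, against 6.05% of all genes. The E-box CACGTG was found in 4 and 1 of the genes (6.86% of all genes), and the STAT letters TTCNNNGAA in 1 and 0 (8.13%). These are matches of letters and do not show binding. Each motif was counted on its own, overlaps included, and in Fasn the letters CCAATTGG hold 2 CCAAT matches, 1 on each strand. The following 5 windows belong to members that recur in the results. They run 5′ to 3′ on the gene's strand, and capitals mark CCAAT, its reverse complement ATTGG and the sterol element. Hmgcs1 lies at chr13:119690101-119690350 (plus strand), Mvd at chr8:122443423-122443672 (minus), Sc5d at chr9:42264301-42264550 (minus), Fasn at chr11:120824548-120824797 (minus) and Srebf1, at 1 of its 3 starts, at chr11:60222582-60222831 (minus).
Hmgcs1: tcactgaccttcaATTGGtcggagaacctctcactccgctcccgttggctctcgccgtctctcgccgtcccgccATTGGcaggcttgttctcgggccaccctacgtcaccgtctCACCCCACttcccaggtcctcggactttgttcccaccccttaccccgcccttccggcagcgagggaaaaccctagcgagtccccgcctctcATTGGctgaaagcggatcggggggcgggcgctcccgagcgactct
Mvd: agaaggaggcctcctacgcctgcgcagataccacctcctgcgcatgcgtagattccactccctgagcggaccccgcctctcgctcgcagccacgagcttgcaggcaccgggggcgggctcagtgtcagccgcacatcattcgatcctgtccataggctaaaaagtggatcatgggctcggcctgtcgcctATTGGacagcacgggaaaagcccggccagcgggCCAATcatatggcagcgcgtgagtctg
Sc5d: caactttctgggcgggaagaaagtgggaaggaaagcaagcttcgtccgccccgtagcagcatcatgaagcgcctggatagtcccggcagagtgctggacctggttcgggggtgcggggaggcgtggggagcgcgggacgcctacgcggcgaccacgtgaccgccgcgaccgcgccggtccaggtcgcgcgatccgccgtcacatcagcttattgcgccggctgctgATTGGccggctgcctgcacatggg
Fasn: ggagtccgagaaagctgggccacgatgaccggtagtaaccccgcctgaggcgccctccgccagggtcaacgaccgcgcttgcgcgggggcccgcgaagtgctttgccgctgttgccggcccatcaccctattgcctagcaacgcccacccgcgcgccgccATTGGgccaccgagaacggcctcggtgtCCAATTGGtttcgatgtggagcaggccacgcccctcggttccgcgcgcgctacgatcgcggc
Srebf1: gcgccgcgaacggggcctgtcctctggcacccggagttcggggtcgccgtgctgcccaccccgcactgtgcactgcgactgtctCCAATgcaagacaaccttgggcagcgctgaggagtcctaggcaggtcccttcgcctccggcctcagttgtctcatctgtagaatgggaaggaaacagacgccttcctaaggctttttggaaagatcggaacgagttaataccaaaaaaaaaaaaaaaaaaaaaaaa
Of these, Hmgcs1 and Fasn hold 3 CCAAT matches each, Mvd holds 2, and Sc5d and Srebf1 hold 1 each.

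After filtering, 7046 WT cells (median 10296 UMIs, unique molecular identifiers) and 7914 C3-TAg cells (median 8684 UMIs) remained, and 17 barcodes were shared between the libraries before doublet removal, of 7406 and 8458. Cells were put into 3 classes by rule. Hormone-sensing cells had at least 5 UMIs per 10000 of Areg, Pgr, Esr1 and Cited1 together, and the other cells were milk-high with at least 0.5% of UMIs from Csn1s1, Csn1s2a, Csn2 and Csn3, or milk-low below that. WT held 2720 hormone-sensing, 3750 milk-high and 576 milk-low cells, and C3-TAg held 2027, 2491 and 3396. Of the markers outside the rule, Prlr and Elf5 followed the names, but not every listed marker did. The prolactin receptor gene Prlr was at 2500 CPM (counts per 1000000 UMIs) in WT and 1503 CPM in C3-TAg hormone-sensing cells but at 67.0 to 289 CPM in the other classes. The alveolar factor gene Elf5 was at 312 and 257 CPM in milk-high but at 8.84 and 13.45 CPM in hormone-sensing cells. Aldh1a3, listed as a secretory marker, went the other way in C3-TAg, at 47.1 CPM in milk-high and 105.4 CPM in hormone-sensing cells.

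Some limits of the classes touch every result. Near the receptor limit, with a sum of 4 to 6, lay 19, 7 and 20 cells of the WT classes and more, 102, 18 and 141 cells, of the C3-TAg classes. Receptor limits of 10 and 3 gave 1670 and 2389 hormone-sensing cells in C3-TAg, against 2573 and 2787 in WT. The WT milk-low class is small and mixed, with Krt5, a basal keratin gene, at 45.5 CPM, the 5 endothelial markers at 35.4 CPM in sum against 1.75 to 6.77 CPM elsewhere, and Fabp4 at 216 CPM. The 8 adipocyte markers other than Fabp4 summed to at most 3.58 CPM in any class. Of these, Cidec and Lep were at 0 in all 6 groups. Adipoq, Plin4, Cfd and Car3 were detected in WT milk-low cells, and Adipoq also in C3-TAg milk-low cells. Fibroblast markers summed to 703 CPM in WT hormone-sensing cells, almost all of it Dcn (702.6 CPM). In C3-TAg the hormone-sensing class reached into cells of another kind. The 357 cells with a receptor sum of 5 to 10 had Prlr at 500.4 CPM and Krt14, listed as a basal marker, at 365 CPM. The 1670 cells at 10 and over had 1760 and 43.1 CPM. Of the other basal markers, Krt5, Acta2, Myh11 and Trp63 were at 0.235 to 1.12 CPM in the whole C3-TAg class, and Tagln at 26.5 CPM. Krt14 was also at 462 CPM in C3-TAg milk-high cells. The listed secretory markers Aldh1a3, Kit and Elf5 were at 322, 65.2 and 38.1 CPM in the 357 cells. They were at 49.9, 7.23 and 7.155 CPM in the 1670 cells. Cells with 2 or more UMIs of 20 G2M genes, at 2000 UMIs per cell, made up 12.9%, 38.0% and 53.8% of the C3-TAg hormone-sensing, milk-high and milk-low cells, against 0.258%, 0.187% and 0.527% in WT. Values without these cells are given beside several results below.

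The plot of member levels in the 6 groups shows how the branches are spread. Summed over the branch, the sterol genes reached 511, 404 and 539 CPM in WT hormone-sensing, milk-high and milk-low cells and 470.3, 465 and 593 CPM in C3-TAg, a narrow range. The fatty acid genes reached 396, 1073 and 409 CPM in WT and 361, 615 and 337 CPM in C3-TAg. In both libraries the fatty acid sum was highest in milk-high cells and the sterol sum was highest in milk-low cells. Scd1 alone gave 668 of the 1073 CPM in WT milk-high cells and 159 of the 615 CPM in C3-TAg milk-high cells.

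**Figure D1:**
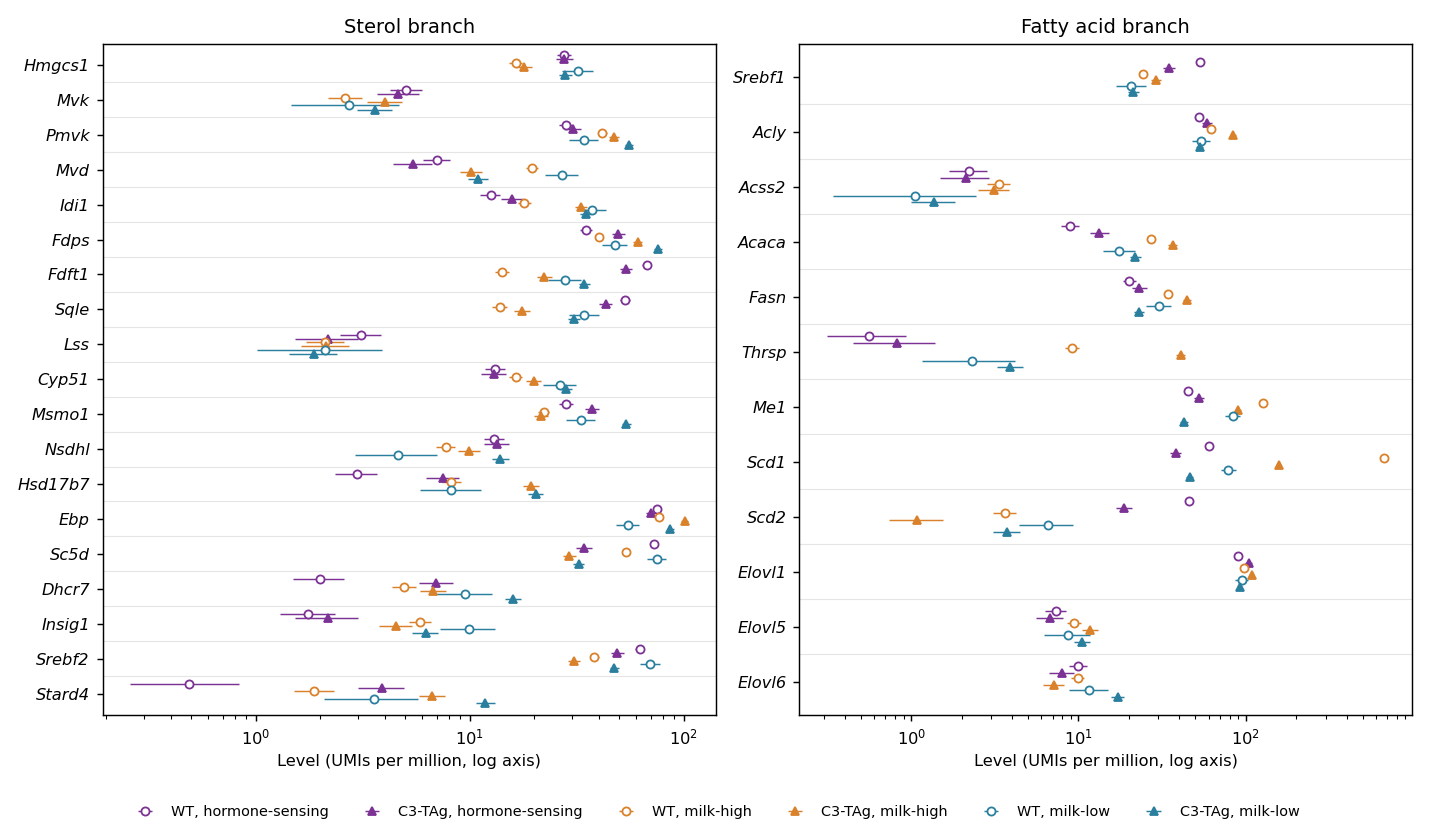
Level of each of the 31 genes in CPM on a log axis, with 95% counting intervals, in hormone-sensing (purple), milk-high (orange) and milk-low (blue) cells of WT (open circles) and C3-TAg (filled triangles). Scd1 stands out in WT milk-high cells at 668 CPM, and Scd2 in hormone-sensing cells at 45.8 CPM in WT against 18.7 CPM in C3-TAg.

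Milk-high cells were first compared with hormone-sensing cells within each library, to show how the branches divide between the luminal lineages. A gene was called higher or lower at a ratio of 1.5 with at least 20 UMIs over both groups. In the fatty acid branch 6 of 12 genes were higher and 2 lower in WT, where 19.8% of 13101 genes were higher and 39.4% lower, and 6 were higher and 1 lower in C3-TAg, where the shares were 17.8% and 28.6% of 12911 genes. The median log2 ratio of the branch was 0.48 in WT and 0.67 in C3-TAg, against -0.32 and -0.13 over all genes. Acaca, Fasn, Thrsp, Me1 and Scd1 were higher in both libraries, which is 5 of the 6 higher genes in each.

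Scd1, the main stearoyl-CoA desaturase gene of lipogenic tissues, lies at chr19:44394455-44407879 on GRCm38. It was at 60.4 CPM in WT hormone-sensing and 668 CPM in WT milk-high cells, 11.1-fold higher (95% interval 10.52 to 11.6), and at 38.2 and 159 CPM in C3-TAg, 4.16-fold higher (3.83 to 4.52). The neighbouring gene Scd2 (chr19:44293674-44306864) had the reverse pattern. It was at 45.8 CPM in WT hormone-sensing and 3.63 CPM in milk-high cells, 12.6-fold lower (10.7 to 14.9), and at 18.7 and 1.08 CPM in C3-TAg, 17.3-fold lower (11.9 to 25.9). So the hormone-sensing class held most of the Scd2 and the milk-high class most of the Scd1 in both libraries. The genes are close paralogs, and reads shared between them were not resolved here. Thrsp was nearly absent from hormone-sensing cells, at 0.562 CPM (15 UMIs) in WT and 0.822 CPM (14 UMIs) in C3-TAg, and stood at 9.15 and 40.7 CPM in milk-high cells. Its ratio was 16.3-fold (9.77 to 29.4) in WT and 49.5-fold (29.4 to 90.8) in C3-TAg. These sizes depended on doublet removal. With called doublets kept, the log2 ratio of Thrsp went from 4.03 to 2.65 in WT and from 5.63 to 3.23 in C3-TAg. That of Scd1 went from 3.47 to 2.35 in WT and from 2.06 to 1.73 in C3-TAg. The cause of these shifts was not tested.

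The enzymes ahead of the desaturases were higher in milk-high cells by smaller factors. Acaca, which makes malonyl-CoA, was 3.03-fold higher in WT (27.0 against 8.91 CPM) and 2.75-fold higher in C3-TAg (36.7 against 13.3 CPM). Me1 was 2.78-fold higher in WT (126 against 45.4 CPM) and 1.72-fold in C3-TAg (90.1 against 52.5 CPM). Fasn, fatty acid synthase, was 1.69-fold (1.53 to 1.87) higher in WT and 1.93-fold (1.72 to 2.16) in C3-TAg. In this comparison the gene for the regulator of the branch did not follow these enzymes. Srebf1 was at 53.4 CPM in WT hormone-sensing and 24.3 CPM in WT milk-high cells, 2.19-fold lower, and at 34.9 and 29.2 CPM in C3-TAg, a ratio of 0.836 that was under the threshold. Acly and the elongase genes Elovl1 and Elovl6 stayed within 1.5-fold in both libraries, at 0.895-fold to 1.44-fold. Elovl5 was 1.73-fold higher in C3-TAg and 1.29-fold in WT.

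In the sterol branch, set against the same shares of all genes (19.8% higher and 39.4% lower in WT, 17.8% and 28.6% in C3-TAg), 3 of the 4 counts were near the background, and the higher genes of C3-TAg were above it. In WT 5 of 19 genes were higher and 6 lower in milk-high than in hormone-sensing cells, and in C3-TAg 7 were higher and 5 lower, with medians of 0.03 and -0.03. Among the lower genes, the squalene steps had the largest ratios in both libraries. Fdft1, squalene synthase, was at 67.1 CPM in WT hormone-sensing and 14.1 CPM in milk-high cells, 4.75-fold lower (4.34 to 5.20), and at 53.6 and 22.4 CPM in C3-TAg, 2.40-fold lower (2.17 to 2.66). Sqle, squalene epoxidase, was 3.87-fold lower in WT (13.8 against 53.4 CPM) and 2.45-fold lower in C3-TAg (17.6 against 43.1 CPM). Hmgcs1, the entry enzyme, was 1.68-fold lower in WT and 1.54-fold lower in C3-TAg, and Srebf2 was 1.63-fold and 1.60-fold lower. These 4 genes were lower in both libraries, of 6 and 5 lower genes. Other members went the other way.

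Mvd, Hsd17b7, Insig1 and Stard4 were higher in milk-high cells of both libraries, which is 4 of the 5 higher genes in WT and of the 7 in C3-TAg. Mvd, the mevalonate diphosphate decarboxylase gene, was at 7.003 and 19.6 CPM in WT, 2.79-fold higher, and at 5.404 and 10.1 CPM in C3-TAg, 1.88-fold higher. Insig1 was at 1.76 and 5.87 CPM in WT, 3.33-fold higher (2.44 to 4.64). Idi1, isopentenyl diphosphate isomerase, was 2.10-fold higher in C3-TAg (33.3 against 15.8 CPM) and 1.44-fold in WT. Without cells of 2 or more G2M UMIs, 8 sterol genes were higher and 4 lower in C3-TAg, with log2 ratios of 1.06 for Cyp51, 1.72 for Insig1 and 0.71 for Dhcr7. These counts also depended on the scale. With TMM scaling, which shifted the log2 ratios by 0.33 in WT and 0.13 in C3-TAg, 8 sterol genes were higher and 3 lower in each. Among C3-TAg cells with at least 2000 UMIs and at most 5% mitochondrial UMIs, where 594 hormone-sensing cells were left, no sterol gene was called higher, and Cyp51, Insig1 and Stard4 had log2 ratios of -0.21, -0.09 and -0.19.

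**Figure D2:**
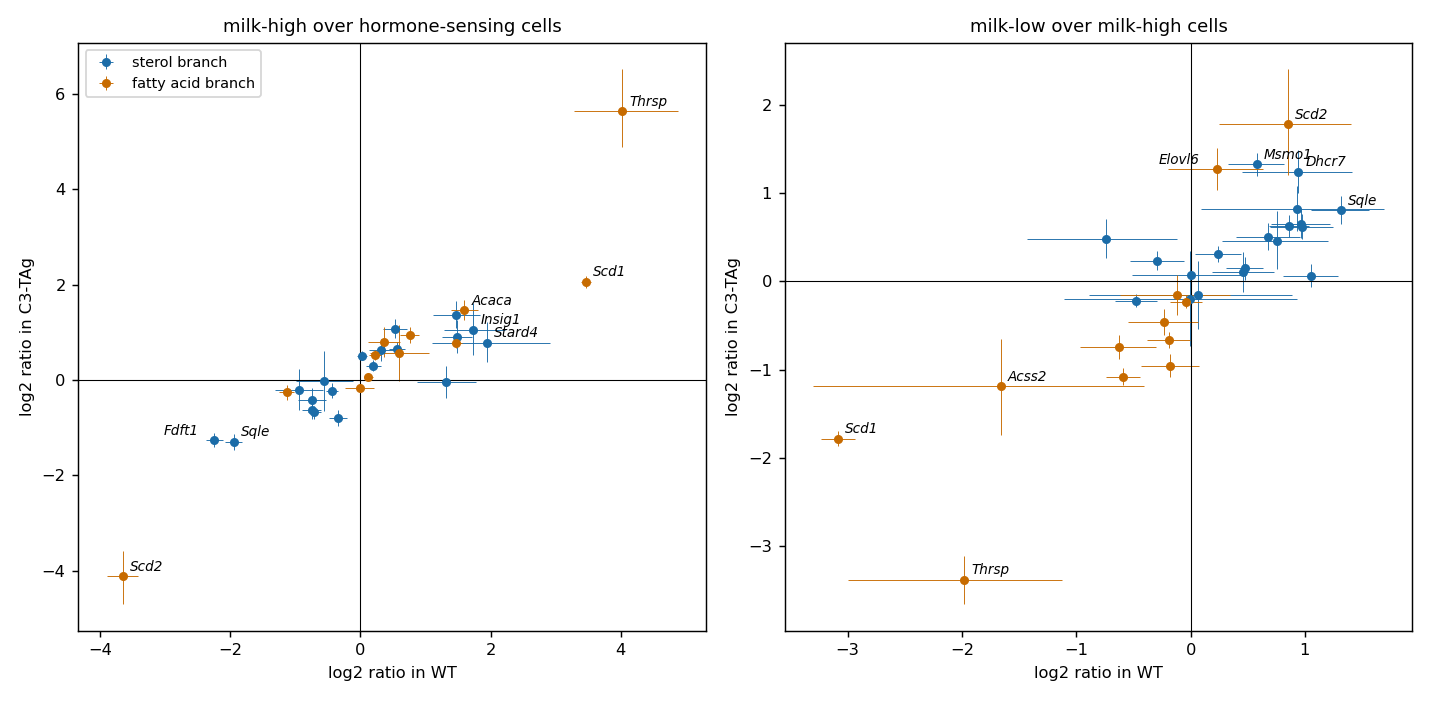
Log2 ratio of each gene in WT (horizontal) and C3-TAg (vertical) for milk-high over hormone-sensing cells (left) and milk-low over milk-high cells (right), sterol branch in blue, fatty acid branch in orange, bars as 95% counting intervals. On the left, Thrsp and Scd1 are at the upper right, Scd2 is at the lower left (-3.66 and -4.11), and Fdft1 and Sqle are the lowest sterol genes. On the right, most sterol genes have values above 0 in both libraries, and Scd1 and Thrsp have values below -1.7.

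Milk-low cells were next compared with milk-high cells, that is, within the cells without the receptor signature. In both libraries more sterol genes were higher than lower, as among all genes, and the C3-TAg sterol count was near the share of all genes. More fatty acid genes were lower than higher, unlike among all genes. In the sterol branch 9 of 19 genes were higher and 1 lower in WT milk-low cells, where 25.9% of 12304 genes were higher and 8.13% lower, and 7 were higher and 0 lower in C3-TAg, where the shares were 30.8% and 8.99% of 13235 genes. The medians were 0.58 and 0.46, against 0.24 and 0.30 over all genes. Hmgcs1, Fdft1, Sqle, Dhcr7, Srebf2 and Stard4 were higher in both libraries, 6 of 9 and of 7 genes. In the fatty acid branch 5 of 12 genes were lower and 1 higher in WT, and 7 were lower and 2 higher in C3-TAg, with medians of -0.21 and -0.71. With TMM scaling, a log2 shift of -0.25 in WT and -0.30 in C3-TAg, 7 sterol genes were higher and 2 lower in WT, and 2 were higher and 0 lower in C3-TAg, while the fatty acid branch had 5 and 8 lower genes.

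Sqle was at 34.3 CPM in WT milk-low and 13.8 CPM in milk-high cells, 2.49-fold higher (2.08 to 2.96), and at 30.8 and 17.6 CPM in C3-TAg, 1.75-fold higher (1.57 to 1.95). Hmgcs1 was 1.96-fold higher in WT (32.0 against 16.4 CPM) and 1.56-fold in C3-TAg (28.0 against 17.9 CPM). Fdft1 was 1.97-fold and 1.54-fold higher, and Srebf2 1.82-fold and 1.54-fold. The libraries differed for Idi1 and Msmo1. Idi1 was 2.07-fold higher (1.75 to 2.44) in WT milk-low cells but at 34.8 and 33.3 CPM, a ratio of 1.05, in C3-TAg. Msmo1, the sterol C4 demethylase gene, was at 53.9 CPM in C3-TAg milk-low and 21.5 CPM in milk-high cells, 2.50-fold higher (2.28 to 2.75), and had a ratio of 1.49 in WT. Insig1 was 1.69-fold higher in WT and had a ratio of 1.38 in C3-TAg. Nsdhl, the only sterol gene called lower, was at 4.63 CPM (22 UMIs) in WT milk-low cells, and its log2 ratio changed sign to 0.06 with a casein limit of 2%.

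On the fatty acid side Scd1 was at 78.6 CPM in WT milk-low and 668 CPM in milk-high cells, 8.50-fold lower (7.67 to 9.44), and at 46.1 and 159 CPM in C3-TAg, 3.44-fold lower (3.24 to 3.65). Thrsp was 3.95-fold lower in WT, where 11 UMIs were found in milk-low cells, and 10.4-fold lower (8.65 to 12.6) in C3-TAg (3.92 against 40.7 CPM). Acaca, Acss2 and Me1 were also lower in both libraries. Me1 was 1.51-fold lower in WT and 2.11-fold in C3-TAg. Fasn and Acly were past the threshold in C3-TAg, Fasn by 1.94-fold (23.0 against 44.6 CPM) and Acly by 1.59-fold (53.0 against 84.2 CPM), with WT ratios of 0.885 and 0.876. Srebf1 had ratios of 0.848 in WT and 0.728 in C3-TAg, both under the threshold. Scd2 was higher in milk-low cells of both libraries, 1.80-fold (1.19 to 2.65) in WT and 3.44-fold (2.30 to 5.28) in C3-TAg, at 6.53 and 3.73 CPM. Elovl6 was 2.41-fold higher in C3-TAg milk-low cells (17.1 against 7.10 CPM).

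The same cells were then ordered by casein share into 7 bins, from under 0.1% to 10% and more of UMIs, since the class limit is 1 point on a continuous scale. Over these bins the sterol sum went from 528 to 316 CPM in WT and from 608 to 332 CPM in C3-TAg. The fatty acid sum went from 363 to 1337 CPM in WT and from 319 to 1099 CPM in C3-TAg. From the lowest bin to the bin of 5 to 10%, the log2 ratio was -0.44 in WT and -0.55 in C3-TAg for the sterol genes and 1.79 and 1.34 for the fatty acid genes. Casein transcripts themselves take up part of the total. With the caseins left out of it, these values were -0.33, -0.45, 1.90 and 1.44. Depth and cycling moved along the same scale. The median UMIs per cell went from 7111 to 15170 in WT and from 8344 to 13210 in C3-TAg, and the share of C3-TAg cells with 2 or more G2M UMIs went from 55.4% to 14.5%. The WT bins held at most 0.559% of such cells. The part of depth and cycling in the trend was not tested.

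Sqle went from 43.8 to 7.49 CPM over the bins in WT and from 31.8 to 7.11 CPM in C3-TAg. Hmgcs1 went from 34.9 to 9.16 CPM and from 29.0 to 9.14 CPM, so the libraries nearly coincided. Srebf2 was lower at each end in C3-TAg, going from 67.6 to 23.6 CPM in WT and from 47.8 to 18.3 CPM in C3-TAg. Idi1 went from 42.3 to 9.39 CPM in WT, whereas in C3-TAg it was highest at 0.5 to 1% casein (44.8 CPM) and still at 21.3 CPM in the top bin. Msmo1 went from 58.5 to 9.14 CPM in C3-TAg.

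Scd1 went from 54.9 to 902 CPM in WT and from 41.4 to 462 CPM in C3-TAg. At equal casein share the C3-TAg cells thus had less of it, with 184 against 608 CPM at 2 to 5% casein. Thrsp went from 1.48 to 18.0 CPM in WT and from 1.57 to 82.3 CPM in C3-TAg, with 48.5 against 6.99 CPM at 2 to 5% casein. These genes were therefore displaced in opposite directions between the libraries within the same bin. Acaca went from 9.65 to 32.4 CPM and from 20.3 to 42.7 CPM, and Me1 from 67.6 to 153 CPM and from 39.4 to 142 CPM. Fasn was nearly level in WT, at 29.7 CPM in the lowest and 30.6 CPM in the highest bin, but went from 21.8 to 87.4 CPM in C3-TAg. Acly went from 54.2 to 74.8 CPM in WT and from 50.3 to 123 CPM in C3-TAg. The regulator gene Srebf1 went from 24.5 to 22.8 CPM in WT and from 21.0 to 36.6 CPM in C3-TAg. The top bin held 577 WT but only 76 C3-TAg cells.

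**Figure D3:**
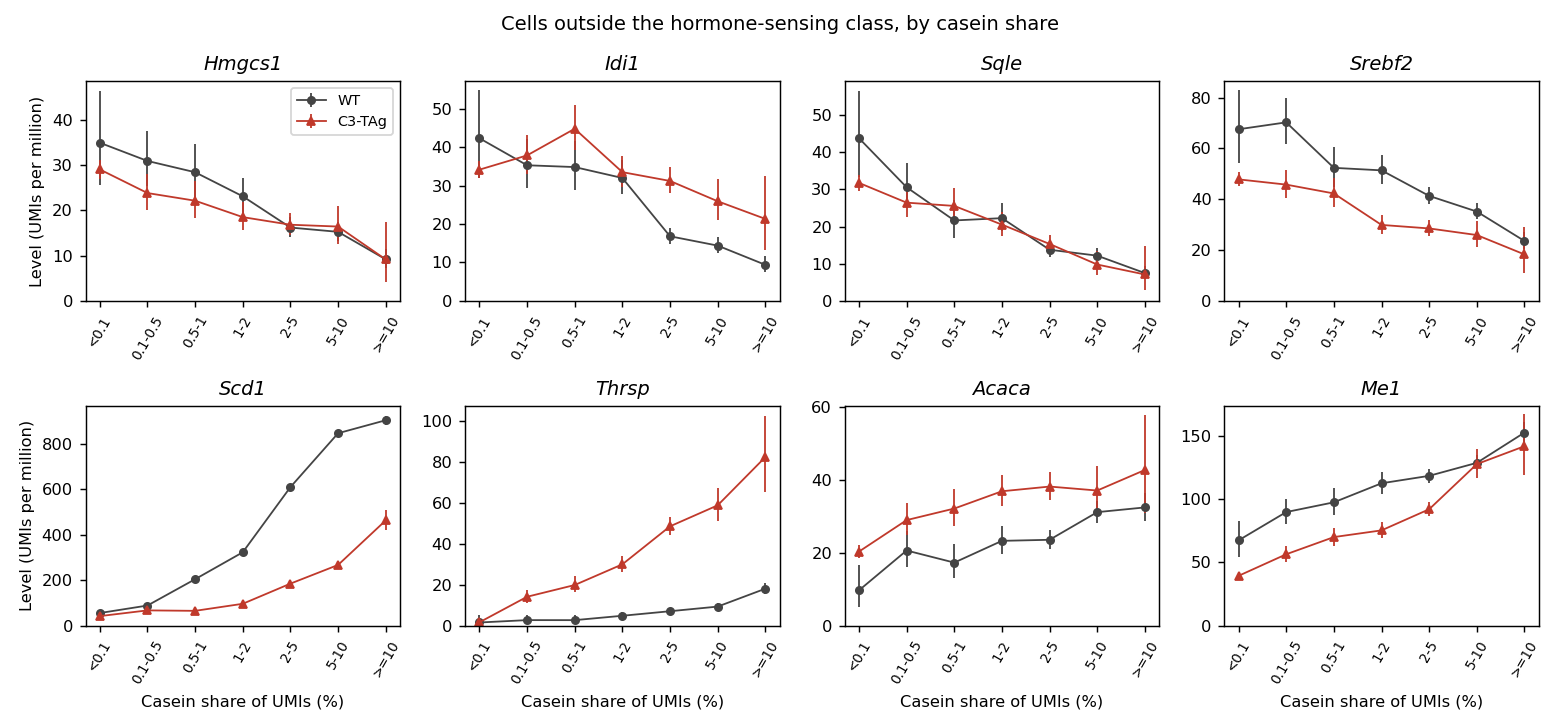
Level (CPM) of 4 sterol genes (top) and 4 fatty acid genes (bottom) in cells outside the hormone-sensing class, by casein share of UMIs, for WT (grey circles) and C3-TAg (red triangles) with 95% counting intervals. Sqle, Hmgcs1 and Srebf2 go down to the right in both libraries, Scd1 goes up to 902 CPM in WT against 462 CPM in C3-TAg, and Thrsp goes up to 82.3 CPM in C3-TAg and 18.0 CPM in WT.

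C3-TAg was compared with WT class by class, the pair of groups that the design sets against each other. In milk-high cells 6 of 19 sterol genes were higher and 2 lower, where 31.2% of 12905 genes were higher and 10.6% lower, and the branch median was 0.35 against 0.32 over all genes. The share of higher sterol genes was thus 31.6%, close to the background. In the fatty acid branch 1 of 12 genes was higher and 2 lower, with a median of 0.21. The strongest values were those of single genes. Scd1 was at 668 CPM in WT against 159 CPM in C3-TAg, 4.21-fold lower (4.08 to 4.34). The milk-high classes were not matched for casein share, with a median of 4.17% in WT and 2.095% in C3-TAg. Within casein bins, Scd1 was at 608 against 184 CPM at 2 to 5% and at 902 against 462 CPM at 10% and more. The part of casein share in the class ratios was not tested. Thrsp was at 9.15 CPM in WT against 40.7 CPM in C3-TAg, 4.45-fold higher (3.98 to 4.98). Scd2 was 3.35-fold lower (2.27 to 5.08), from 3.63 to 1.08 CPM. The other fatty acid genes lay between log2 ratios of -0.48 (Me1) and 0.45 (Acly), with Fasn at 0.39 and Srebf1 at 0.26.

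Among the sterol genes of milk-high cells, Stard4 was at 1.88 CPM in WT against 6.68 CPM in C3-TAg, 3.56-fold higher (2.75 to 4.63), and Hsd17b7, a sterol ketone reductase gene, at 8.19 and 19.3 CPM, 2.36-fold higher (2.07 to 2.69). Idi1 was 1.85-fold higher (33.3 against 18.0 CPM), Fdft1 1.58-fold, Mvk 1.53-fold and Fdps 1.51-fold. Mvd was 1.93-fold lower (10.1 against 19.6 CPM) and Sc5d, the lathosterol desaturase gene, 1.84-fold lower (29.2 against 53.8 CPM). Hmgcs1 had a ratio of 1.09 and Sqle of 1.27, both under the threshold, as had Srebf2 at 0.803 and Insig1 at 0.769. With TMM scaling, which shifted the log2 ratio by -0.32, Stard4 and Hsd17b7 were the 2 sterol genes still higher and 4 were lower, and Idi1, Fdft1, Mvk and Fdps were under the threshold. Without the cells that carried 2 or more G2M UMIs, 3 sterol genes were higher and 3 lower, Scd1 had a log2 ratio of -1.73 and Thrsp of 2.10.

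In milk-low cells 8 of 19 sterol genes were higher and 3 lower in C3-TAg, where 37.2% of 12820 genes were higher and 14.7% lower. The median was 0.31 against 0.35 over all genes. The median casein share of these classes was 0.181% in WT and 0.0200% in C3-TAg, and its part in the ratios was not tested. Stard4 was 3.31-fold higher (2.04 to 5.74, 3.58 against 11.8 CPM) and Nsdhl 3.00-fold (1.96 to 4.84, 4.63 against 13.9 CPM). Hsd17b7 was 2.48-fold higher (8.21 against 20.4 CPM), Msmo1 1.63-fold (33.1 against 53.9 CPM), Pmvk 1.63-fold and Fdps 1.59-fold. Dhcr7, the last reductase of the pathway, was 1.69-fold higher, and Ebp 1.58-fold. Mvd was 2.47-fold lower (27.0 against 10.9 CPM), Sc5d 2.31-fold lower (74.8 against 32.3 CPM) and Insig1 1.59-fold lower (9.90 against 6.21 CPM). Srebf2 had a ratio of 0.683, Hmgcs1 of 0.875 and Sqle of 0.896. In the fatty acid branch Thrsp was the 1 higher gene (1.69-fold, interval 0.913 to 3.47), and Me1 (1.96-fold), Scd2 (1.75-fold) and Scd1 (1.70-fold) were the 3 lower ones. Fasn and Srebf1 had ratios of 0.763 and 1.03. With TMM scaling (log2 shift -0.33) Stard4, Nsdhl and Hsd17b7 were the 3 sterol genes still higher, 4 were lower, and no fatty acid gene was higher. Without cells of 2 or more G2M UMIs, 6 sterol genes were higher and 4 lower, and 2 fatty acid genes were higher and 2 lower, with Scd1 at a log2 ratio of -0.58. The 5 endothelial markers summed to 35.4 CPM in WT against 6.77 CPM in C3-TAg milk-low cells, and the 7 basal markers to 265 and 499.6 CPM. Within the basal list Krt5, Acta2, Myh11 and Trp63 were lower and Krt14 was 2.80-fold higher. The part of these markers in the values above was not tested.

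In hormone-sensing cells 3 of 19 sterol genes were higher and 1 lower in C3-TAg, where 22.8% of 12786 genes were higher and 9.14% lower, and 0 of 12 fatty acid genes were higher and 3 lower. The medians were 0.01 and 0.04, against 0.14 over all genes. Sc5d was at 72.8 CPM in WT against 34.2 CPM in C3-TAg, 2.13-fold lower (1.94 to 2.34). Scd2 was at 45.8 and 18.7 CPM, 2.44-fold lower (2.16 to 2.77), Scd1 at 60.4 and 38.2 CPM, 1.58-fold lower, and Srebf1 at 53.4 and 34.9 CPM, 1.53-fold lower. Stard4 was 7.96-fold higher (4.35 to 15.7) from 13 WT UMIs to 66 in C3-TAg, Dhcr7 3.52-fold (1.99 to 6.99 CPM) and Hsd17b7 2.54-fold (2.96 to 7.52 CPM). Hmgcs1 had a ratio of 1.004, Sqle of 0.808, Srebf2 of 0.786, Insig1 of 1.24 and Fasn of 1.15.

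Several of these values rested on which cells the class held. With the receptor sum taken without Areg, 1094 C3-TAg cells were left in the class, and the log2 ratio was 1.67 for Stard4, 0.15 for Dhcr7 and -0.11 for Hsd17b7, so that 1 sterol gene was higher and 5 lower. Among cells with at least 2000 UMIs and at most 5% mitochondrial UMIs, 7 sterol genes were higher and 1 lower. Without cells carrying 2 or more G2M UMIs, Stard4 (2.13), Dhcr7 and Hsd17b7 (0.74) stayed past the threshold and Srebf1 (-0.48) did not, with 3 sterol genes lower. With a receptor sum of at least 10, Scd1 (-0.45) and Srebf1 (-0.50) were under the threshold, whereas with called doublets kept Scd1 was at -1.52. The cause of this shift was not tested. Milk protein transcripts, summed over 9 genes, were at 2915 CPM in WT against 1205 CPM in C3-TAg hormone-sensing cells, and their part in the Scd1 value was not tested. Sc5d kept a log2 ratio of -1.24 to -0.96 and Scd2 of -1.82 to -0.85 over all alternatives.

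Across the classes, Hsd17b7 and Stard4 were higher and Sc5d, Scd1 and Scd2 lower in C3-TAg in all 3. The classes share their libraries, so these are not independent repeats. For Hsd17b7 the hormone-sensing value varied with the cells in the class. Its log2 ratio ranged from -0.11, with Areg left out of the receptor sum, to 2.35, and was 0.81 at a receptor limit of 10. In C3-TAg it was at 18.5 CPM in cells with a receptor sum of 5 to 10 and at 4.72 CPM in those at 10 and over. Sc5d was at 72.8, 53.8 and 74.8 CPM in WT hormone-sensing, milk-high and milk-low cells and at 34.2, 29.2 and 32.3 CPM in C3-TAg. Every WT class was thus above every C3-TAg class for this gene. Scd1 was 4.21-fold lower in milk-high cells and 1.58-fold and 1.70-fold lower in the others. These sizes depended on the processing, with log2 ratios of -2.39 to -1.73 in milk-high cells, -1.52 to -0.45 in hormone-sensing cells and -1.91 (a casein limit of 2%) to -0.56 in milk-low cells over the alternatives. Mvd was lower in milk-high and milk-low cells and had a ratio of 0.772 in hormone-sensing cells. Some members, among them Lss, Acss2, Mvk, Elovl5 and Insig1, stayed below the level of 20 CPM in every group.

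**Figure D4:**
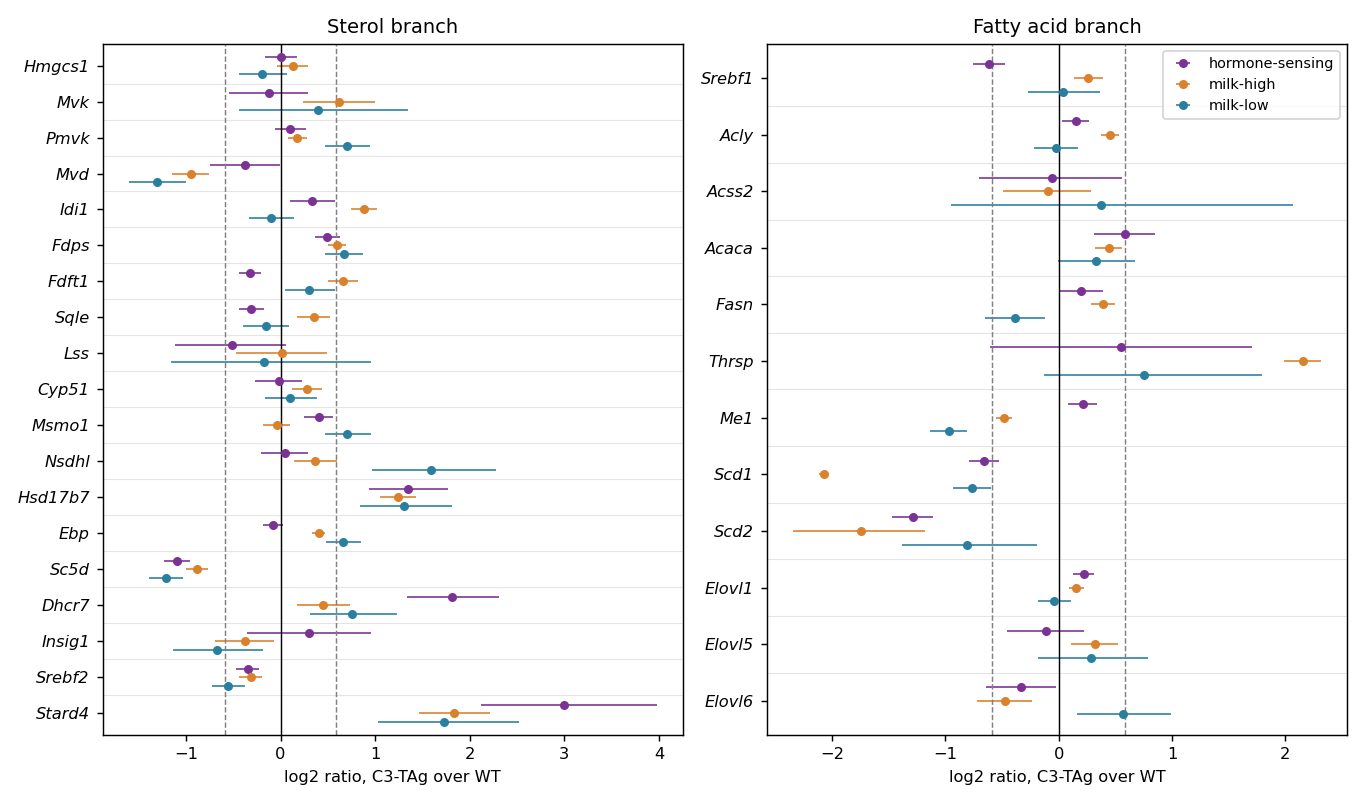
Log2 ratio of C3-TAg over WT for each gene in hormone-sensing (purple), milk-high (orange) and milk-low (blue) cells, with 95% counting intervals and dashed lines at 1.5-fold. Sc5d lies left of the lower dashed line in all 3 classes (-1.09, -0.88 and -1.21), and Thrsp (2.15) and Scd1 (-2.07) of milk-high cells lie at opposite ends.

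Because cells with G2M transcripts were far more frequent in C3-TAg, the members were compared within C3-TAg between cells with 2 or more G2M UMIs and cells with fewer. In milk-low cells (1815 against 1559) 1 sterol gene was higher, where 8.42% of 12516 genes were higher and 5.05% lower. That gene was Mvk, and Acss2 was the 1 fatty acid gene that was lower. In milk-high cells (947 against 1544) 2 sterol genes, Mvk and Stard4, were higher and 2 fatty acid genes, Scd1 and Scd2, lower, where 9.76% of 11824 genes were higher and 2.59% lower. Scd1 was at 100.6 CPM in the cells with and 201 CPM in those without 2 or more G2M UMIs. Scd2 had only 10 and 21 UMIs in them, and its log2 interval of -1.86 to 0.54 includes no change. The hormone-sensing class looked different. There the 261 cells with 2 or more G2M UMIs, against 1759 with fewer, had 9 sterol genes higher and 1 lower and, of 11 measured fatty acid genes, 3 higher and 3 lower, where 32.5% of 11728 genes were higher and 22.6% lower. Idi1 was at 42.8 against 10.1 CPM, Cyp51 at 34.4 against 8.40 CPM and Dhcr7 at 21.3 against 3.99 CPM. Scd2 was at 3.71 against 21.9 CPM. Acss2, among the 3 lower fatty acid genes, had 0 against 36 UMIs, so its ratio rests on a floor of 3 counts. These 261 cells also had Prlr at 145 against 1790 CPM and Krt14 at 369 against 53.6 CPM. Both values were closer to those of the C3-TAg milk-low class (67.0 and 411 CPM) and milk-high class (68.65 and 462 CPM), which these markers do not separate.

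The share of cells with a UMI was read after thinning each cell to 2000 UMIs. Scd1 had a UMI in 44.5% of milk-high cells in WT and 19.0% in C3-TAg (95% exact Clopper-Pearson intervals 42.9 to 46.1% and 17.5 to 20.6%), against 10.2% and 6.78% of hormone-sensing cells. Thrsp had one in 1.71% of milk-high cells in WT and 7.31% in C3-TAg, against 0.0738% and 0.0990% of hormone-sensing cells. For Scd2 the shares were 8.67% of hormone-sensing cells in WT and 3.66% in C3-TAg, against 0.802% and 0.161% of milk-high cells. A UMI in a droplet does not show that the cell expresses the gene. Free RNA was not estimated, and milk protein transcripts were at 2915 and 1205 CPM in the hormone-sensing classes of WT and C3-TAg. Without thinning, the shares of Scd1 in milk-high cells were 75.2% and 46.8%, at medians of 11800 and 10190 UMIs per cell.

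Other genes of the same pathways were followed through lists chosen by function. Of 8 further sterol enzyme genes, 1, 4 and 3 were higher and 1, 0 and 1 lower in C3-TAg hormone-sensing, milk-high and milk-low cells, where 22.8%, 31.2% and 37.2% of all genes were higher and 9.14%, 10.6% and 14.7% lower. Counts this small, here and in the lists below, are read as a description beside those shares. Lbr, a sterol reductase that is also the lamin B receptor, was higher in each class, at 28.5 against 6.70 CPM, 33.7 against 10.9 CPM and 84.8 against 18.1 CPM. Of 9 measured genes for SREBP control and lipoprotein uptake, 2, 0 and 1 were higher and 0, 0 and 1 lower. Insig2, a relative of Insig1 with the same role, was at 99.1 CPM in C3-TAg and 30.5 CPM in WT milk-low cells.

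Of 15 genes for lipogenic regulators, 2 of 13, 3 of 15 and 6 of 14 measured genes were higher in the same order of classes, and 1, 1 and 2 were lower. Mid1ip1, a close relative of Thrsp, was 2.64-fold, 3.03-fold and 2.61-fold higher in C3-TAg hormone-sensing, milk-high and milk-low cells. Unlike Thrsp, it was lower in milk-high than in hormone-sensing cells, at 3.16 against 12.2 CPM in WT and 9.58 against 32.2 CPM in C3-TAg. Cebpb was at 456 CPM in WT hormone-sensing and 2401 CPM in milk-high cells. Of the other desaturase and elongase genes, 3 of 7, 2 of 8 and 1 of 9 were higher in C3-TAg and 0, 2 and 3 lower. Fads1, a desaturase gene of polyunsaturated fatty acids, was at 60.8 CPM in WT against 39.0 CPM in C3-TAg milk-high cells against 3.60 and 5.70 CPM in hormone-sensing cells. Tecr, which completes each elongation cycle, was 1.62-fold higher in C3-TAg milk-high cells (283 against 174 CPM).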

How the data were processed

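Single-cell 3′ libraries of sorted luminal cells were made with the 10x Genomics Chromium kit, per the labels' protocols. The deposited matrices hold raw UMI counts per gene and cell, and the submitters' processing notes name Cell Ranger 3.1.0 and mm10. Barcodes with at least 500 genes, at least 1000 UMIs and at most 10% mitochondrial UMIs were kept, and 360 WT (4.86%) and 544 C3-TAg (6.43%) doublets called by Scrublet in scanpy 1.11.5 were removed. UMIs were summed per library and class and scaled to the total (CPM). Levels carry exact Poisson and ratios exact conditional Poisson intervals, at 95%. PCR duplicates are collapsed by UMI, but cells of a library share its mice, so intervals and floors cover counting error only. Genes with at least 20 UMIs over both groups were compared, and 1.5-fold was the call. No test across libraries was possible with 1 library per group. TMM factors came from edgeR 4.0.16. Intervals used scipy 1.17.1, tables pandas 2.3.3 and numpy 2.4.6, and plots matplotlib 3.10.9, all under Python 3.11.15.

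The members and lists were chosen with earlier results of these data known. In each comparison and branch, up to 4 called members at each end with 20 CPM or more were named, with Srebf1, Srebf2, Insig1, Fasn, Scd1, Scd2, Sqle and Hmgcs1 always among them, and up to 2 genes at each end of the other lists. Members and list genes named beyond that rule, such as Stard4, Mvk and Dgat1, were chosen after their values were seen. Poisson counts were simulated for the comparison of milk-high cells between the groups (12905 genes), with no spread between mice or libraries. The correct sign was recovered in 96% of 100 genes altered 1.5-fold and in 100% of those altered 4-fold. These rates cover counting error only. A few genes of the other lists are counted but not reported here by name.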

Additional observations from a re-analysis of the deposited data

How the results depend on the processing

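Each library is a single sample, so no difference between the groups can be set against the spread between mice, and median depth differs between the classes and casein bins. Of 103 called values of single genes, 98 kept their direction in every alternative that gave a value, of 14 planned and 2 added after the data were seen (the receptor sum without Areg, and a marker filter without Dcn and Fabp4). No paired analysis was possible because each group has 1 library. The cause of the following changes was not tested. With TMM scaling, the counts were 2 sterol lower (hormone-sensing C3-TAg over WT), 2 sterol higher and 4 sterol lower and 4 fatty acid lower (milk-high C3-TAg over WT), 3 sterol higher and 0 fatty acid higher (milk-low C3-TAg over WT). With TMM scaling, further counts were 8 sterol higher and 3 sterol lower (milk-high over hormone-sensing WT), 2 sterol lower (milk-low over milk-high WT), 3 sterol lower (milk-high over hormone-sensing C3-TAg). With TMM scaling, further counts were 2 sterol higher (milk-low over milk-high C3-TAg). With milk protein genes left out of the total, the counts were 3 sterol higher (milk-high C3-TAg over WT), 2 sterol lower (milk-low over milk-high WT). With the mean over cells, the counts were 1 fatty acid higher (hormone-sensing C3-TAg over WT), 2 fatty acid higher (milk-low C3-TAg over WT), 0 sterol lower (milk-low over milk-high WT). With called doublets kept, the counts were 1 fatty acid higher (hormone-sensing C3-TAg over WT), 4 sterol higher (milk-high over hormone-sensing C3-TAg). With at least 2000 UMIs and at most 5% mitochondrial UMIs, the counts were 7 sterol higher and 1 fatty acid higher (hormone-sensing C3-TAg over WT), 2 fatty acid higher (milk-low C3-TAg over WT), 2 sterol lower and 0 fatty acid higher (milk-low over milk-high WT). With at least 2000 UMIs and at most 5% mitochondrial UMIs, further counts were 0 sterol higher and 2 fatty acid lower (milk-high over hormone-sensing C3-TAg). The log2 ratio there changed sign to -0.209 for Cyp51 (milk-high over hormone-sensing C3-TAg), -0.0922 for Insig1 (milk-high over hormone-sensing C3-TAg), -0.194 for Stard4 (milk-high over hormone-sensing C3-TAg). With a receptor limit of 10, the counts were 3 sterol lower and 1 fatty acid lower (hormone-sensing C3-TAg over WT), 0 sterol lower (milk-low over milk-high WT), 3 sterol lower (milk-high over hormone-sensing C3-TAg). With a receptor limit of 3, the counts were 2 sterol lower and 2 fatty acid higher (hormone-sensing C3-TAg over WT), 2 fatty acid higher (milk-low C3-TAg over WT), 0 fatty acid higher and 3 fatty acid lower (milk-low over milk-high WT). With a receptor limit of 3, further counts were 4 sterol higher (milk-high over hormone-sensing C3-TAg). With a casein limit of 2%, the counts were 3 fatty acid higher (milk-high C3-TAg over WT), 0 sterol lower and 0 fatty acid higher and 3 fatty acid lower (milk-low over milk-high WT). The log2 ratio there changed sign to 0.064 for Nsdhl (milk-low over milk-high WT). With a casein limit of 0.2%, the counts were 3 fatty acid higher (milk-low C3-TAg over WT). Without cells of 2 or more G2M UMIs, the counts were 3 sterol lower (hormone-sensing C3-TAg over WT), 3 sterol higher (milk-high C3-TAg over WT), 2 fatty acid higher (milk-low C3-TAg over WT). Without cells carrying markers of other cell types, the counts were 1 fatty acid higher (hormone-sensing C3-TAg over WT), 2 fatty acid higher (milk-low C3-TAg over WT), 3 fatty acid lower (milk-low over milk-high WT). At a 2-fold threshold, the counts were 1 fatty acid lower (hormone-sensing C3-TAg over WT), 2 sterol higher and 0 sterol lower (milk-high C3-TAg over WT), 3 sterol higher and 0 fatty acid higher and 0 fatty acid lower (milk-low C3-TAg over WT). At a 2-fold threshold, further counts were 2 sterol lower (milk-high over hormone-sensing WT), 2 sterol higher and 0 sterol lower and 0 fatty acid higher and 3 fatty acid lower (milk-low over milk-high WT), 3 sterol higher and 2 sterol lower and 3 fatty acid higher (milk-high over hormone-sensing C3-TAg). At a 2-fold threshold, further counts were 2 sterol higher and 4 fatty acid lower (milk-low over milk-high C3-TAg). With the receptor sum taken without Areg, the counts were 1 sterol higher and 5 sterol lower (hormone-sensing C3-TAg over WT), 2 fatty acid higher (milk-low C3-TAg over WT), 4 sterol higher and 0 sterol lower (milk-low over milk-high WT). With the receptor sum taken without Areg, further counts were 3 sterol lower (milk-high over hormone-sensing C3-TAg). The log2 ratio there changed sign to -0.108 for Hsd17b7 (hormone-sensing C3-TAg over WT), 0.109 for Nsdhl (milk-low over milk-high WT). With caseins left out of the total, the change from the lowest casein bin to the bin of 5 to 10% in C3-TAg was -0.45 for the sterol and 1.44 for the fatty acid genes. Without thinning, the shares of cells with a UMI in WT and C3-TAg were 75.2% and 46.8% for Scd1 and 8.13% and 26.7% for Thrsp in milk-high cells, and 31.03% and 13.0% for Scd2 in hormone-sensing cells.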

Other observations

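Counts for lipid genes outside the synthesis branches are given beside the shares of all genes, which were 19.8% higher and 39.4% lower for milk-high over hormone-sensing cells in WT and 17.8% and 28.6% in C3-TAg. Between the groups they were 22.8%, 31.2% and 37.2% higher and 9.14%, 10.6% and 14.7% lower in hormone-sensing, milk-high and milk-low cells. Of 11 measured genes for fatty acid uptake and activation, 6 were higher and 2 lower in WT milk-high than in hormone-sensing cells, and 8 were higher and 1 lower in C3-TAg. Lpl, which frees fatty acids from lipoproteins, was at 1.24 and 25.9 CPM in WT and at 3.05 and 45.0 CPM in C3-TAg. Fabp5, a fatty acid carrier gene, was at 13.3 and 368 CPM in WT. Between the groups, 4, 4 and 3 genes of this list were higher in C3-TAg hormone-sensing, milk-high and milk-low cells and 2, 0 and 4 lower. Triglyceride synthesis genes went the other way for Dgat2, which was at 130 CPM in WT hormone-sensing and 3.58 CPM in milk-high cells, while Dgat1 was at 6.78 and 17.8 CPM. In C3-TAg hormone-sensing cells Dgat2 was at 37.0 CPM, 3.52-fold lower than in WT. In that list 1, 1 and 1 genes were higher and 3, 3 and 4 lower in C3-TAg.

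Sterol export and storage genes were higher for 1 of 12 in each class of C3-TAg and lower for 1, 3 and 5. Soat1 and Abcg1, for cholesterol ester storage and export, were at 21.2 and 54.2 CPM in WT hormone-sensing cells against 0.299 and 2.77 CPM in milk-high cells. Lipa, the lysosomal acid lipase gene, had the reverse pattern, at 11.8 and 348 CPM, and was at 130 CPM in C3-TAg milk-high cells. Fatty acid oxidation genes were higher for 1, 4 and 6 of 15 in C3-TAg and lower for 0, 1 and 3, with the higher counts in milk-high and milk-low cells near the shares of all genes. Cpt1a, which admits fatty acids to mitochondria, was 2.09-fold higher in milk-high and 3.02-fold higher in milk-low cells. Of 11 genes for carbon and NADPH supply, 3, 1 and 2 were higher and 2, 2 and 3 lower. Slc2a1, a glucose transporter gene, was at 536 CPM in WT against 124 CPM in C3-TAg milk-high cells, 4.33-fold lower. Its relation to Scd1 or to casein share was not tested.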
